A study of Homo sapiens with 45 samples.

Results

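Recurring cis contacts beyond 2 Mb are pairs of fragments on 1 chromosome, over 2 Mb apart, that were called in 2 or 3 of the 3 pooled contact profiles of a Polycomb perturbation experiment. A call means a CHiCAGO score of at least 5 in that profile, the score measuring how far the reads that join 2 fragments exceed a background model. The rule found 737 such pairs among 434524 listed pairs (0.170%) and among 11261 listed cis pairs beyond 2 Mb. Members were chosen by these scores, so their scores are a description and carry no test.

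The cells were HNES1, an established human embryonic stem cell line, harvested at day 5 while leaving naive for primed pluripotency. The assay was poised-enhancer capture Hi-C, in which DpnII fragments that hold a poised enhancer (the baits) are pulled out of a proximity-ligation library with RNA probes. The treatments were DMSO as the solvent control, 2.5 µM UNC6852, a degrader of the PRC2 subunit EED, or 1 µM UNC1999, an inhibitor of the PRC2 enzymes EZH1 and EZH2. Each agent was added while the cells were still naive and renewed daily to day 5. Each of the 3 conditions had 15 libraries (3 biological replicates, each with 4 libraries of batch 1 and 1 of batch 2), pooled by the authors into 1 column of scores. There is therefore no spread between replicates, no test of a difference, and no known read number behind a score.

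Polycomb repressive complex 2 places the repressive mark H3K27me3, and regions that carry it can meet over long distances in pluripotent cells. Most contacts of a fragment lie close by on the same chromosome, and contacts become rarer with distance. Beside centromeres, human chromosomes hold satellite DNA and large duplicated blocks whose copies are similar in sequence and, on chromosomes 1, 9 and 16, long stretches of heterochromatin. The pairs are described by chromosome and arm, with and without those that span the centromere.

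Sequences of the fragments themselves were not available here, so promoters in or near the ends are shown. They were taken from RefSeq (GRCh38.p14) from 250 bases before to 50 after the start of a transcript. Of 737 members, 193 had a RefSeq promoter within 100 kb of both ends, and in 3 of these the promoters at the 2 ends shared at least 50 identical bases. All 3 lay on chromosome 9. ZNG1F (chr9:41189268-41189567, minus strand) and ZNG1E (chr9:65675678-65675977, plus strand) are members of a family of GTPases that deliver zinc. They stood near the ends of a pair with scores of 26.8, 14.96 and 15.7 in DMSO, UNC6852 and UNC1999, and the capitals mark their longest shared run, of 258 bases.
ZNG1F: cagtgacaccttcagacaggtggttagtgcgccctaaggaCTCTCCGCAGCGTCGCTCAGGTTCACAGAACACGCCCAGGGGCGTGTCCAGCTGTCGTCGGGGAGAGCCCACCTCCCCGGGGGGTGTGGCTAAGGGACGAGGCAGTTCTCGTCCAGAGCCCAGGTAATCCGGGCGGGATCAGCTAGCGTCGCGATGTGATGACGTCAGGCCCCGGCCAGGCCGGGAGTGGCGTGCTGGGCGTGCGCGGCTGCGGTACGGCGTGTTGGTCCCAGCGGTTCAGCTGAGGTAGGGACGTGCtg
ZNG1E: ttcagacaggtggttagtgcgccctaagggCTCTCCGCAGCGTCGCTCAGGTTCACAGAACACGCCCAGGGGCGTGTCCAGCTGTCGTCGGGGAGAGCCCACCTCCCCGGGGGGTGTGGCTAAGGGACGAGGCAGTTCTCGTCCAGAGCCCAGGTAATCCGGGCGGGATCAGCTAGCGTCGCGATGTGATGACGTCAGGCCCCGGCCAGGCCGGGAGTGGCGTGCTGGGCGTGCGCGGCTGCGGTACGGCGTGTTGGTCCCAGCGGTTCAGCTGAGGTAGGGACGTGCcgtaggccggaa

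FOXD4L6 (chr9:41128632-41128931, minus strand) and FOXD4L3 (chr9:68302617-68302916, plus strand) are forkhead genes near the ends of a pair with scores of 25.4, 39.0 and 31.6. The capitals mark a shared run of 87 bases, which ends 1 promoter and opens the other.
FOXD4L6: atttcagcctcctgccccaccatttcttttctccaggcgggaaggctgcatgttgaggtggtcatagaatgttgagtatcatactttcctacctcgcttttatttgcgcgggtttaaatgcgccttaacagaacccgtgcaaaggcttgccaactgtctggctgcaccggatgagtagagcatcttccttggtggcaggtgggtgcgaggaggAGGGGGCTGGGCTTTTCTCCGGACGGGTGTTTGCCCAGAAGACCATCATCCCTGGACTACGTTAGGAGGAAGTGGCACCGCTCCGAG
FOXD4L3: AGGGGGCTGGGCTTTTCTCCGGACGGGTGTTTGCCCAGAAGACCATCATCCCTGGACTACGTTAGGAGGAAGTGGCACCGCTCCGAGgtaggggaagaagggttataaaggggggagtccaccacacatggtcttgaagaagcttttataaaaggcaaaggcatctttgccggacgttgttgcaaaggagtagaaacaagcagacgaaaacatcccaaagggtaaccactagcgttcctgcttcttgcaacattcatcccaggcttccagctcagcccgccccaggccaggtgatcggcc

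The third case was FAM88B with FAM88D, with a shared run of 290 bases. The runs of these 3 promoter pairs were held by 3, 2 and 2 of the 35116 promoters in the table (0.00854%, 0.00570% and 0.00570%), both strands searched. By contrast LRRC37A and LRRC37A3, whose surroundings on chromosome 17 formed many members, had a longest shared run of 8 bases in these windows. That particular run was held, on either strand, by 897 promoters (2.55%).

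Promoters inside or beside member fragments varied in their content of the dinucleotide CG, marked here in capitals. RefSeq promoters in general held a median of 14 CG, with quartiles of 4 and 28. The 37 promoters that overlapped a member fragment held a median of 11. LMX1B (chr9:126613678-126613977, plus strand) and EN2 (chr7:155457879-155458178, plus strand), both homeobox genes, are shown as the homeobox genes within 5 kb of a member's end. LMX1B held 42 CG, a number reached by 5.85% of promoters, and EN2 held 50, reached by 1.29%.
LMX1B: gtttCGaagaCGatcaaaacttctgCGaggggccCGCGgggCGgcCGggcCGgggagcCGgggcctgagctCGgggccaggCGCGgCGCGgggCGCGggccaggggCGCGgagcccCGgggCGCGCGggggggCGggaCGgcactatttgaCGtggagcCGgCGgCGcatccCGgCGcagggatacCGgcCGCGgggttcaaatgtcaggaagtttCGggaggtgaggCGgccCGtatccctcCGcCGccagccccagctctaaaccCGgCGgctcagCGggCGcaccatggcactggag
EN2: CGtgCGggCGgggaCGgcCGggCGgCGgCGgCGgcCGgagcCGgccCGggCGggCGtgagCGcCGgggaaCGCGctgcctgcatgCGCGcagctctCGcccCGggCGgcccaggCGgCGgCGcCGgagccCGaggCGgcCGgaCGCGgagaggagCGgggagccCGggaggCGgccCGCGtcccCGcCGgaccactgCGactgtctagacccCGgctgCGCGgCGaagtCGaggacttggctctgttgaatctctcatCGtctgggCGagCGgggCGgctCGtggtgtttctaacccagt

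NBPF1 (chr1:16613515-16613814, minus strand), of a family expanded in primates, and KANSL1 (chr17:46192733-46193032, minus strand), a subunit of a histone acetyltransferase complex, are shown because a member fragment of the groups on chromosomes 1 and 17 overlapped each promoter. They held 26 and 28 CG.
NBPF1: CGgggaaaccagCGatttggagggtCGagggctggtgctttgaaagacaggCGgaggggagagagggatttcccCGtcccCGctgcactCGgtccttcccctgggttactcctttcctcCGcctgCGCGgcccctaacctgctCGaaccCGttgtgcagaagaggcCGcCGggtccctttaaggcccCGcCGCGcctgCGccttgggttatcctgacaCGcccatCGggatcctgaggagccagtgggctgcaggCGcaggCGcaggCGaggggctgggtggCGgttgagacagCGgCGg
KANSL1: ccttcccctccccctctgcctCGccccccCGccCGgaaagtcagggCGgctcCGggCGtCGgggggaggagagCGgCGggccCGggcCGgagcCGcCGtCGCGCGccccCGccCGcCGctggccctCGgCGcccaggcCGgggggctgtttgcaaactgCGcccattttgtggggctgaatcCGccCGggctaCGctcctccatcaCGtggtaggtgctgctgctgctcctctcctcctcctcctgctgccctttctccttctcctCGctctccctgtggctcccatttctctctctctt

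Recurrence was lower at greater distance. Of the pairs listed under 20 kb 39.5% were called in 2 or 3 profiles, of those of 0.5 to 2 Mb 13.4%, of those beyond 2 Mb 6.54% (95% exact binomial interval 6.09 to 7.02%), and of trans pairs, whose ends lie on different chromosomes, 0.334%. These intervals cover counting error only. A few baits carried much of the long-range count. Of the 301 baits with at least 50 listed pairs (1.10% of 27333 baits), 17 had members, and these supplied 478 of the 737. Members count among the listed pairs, so the class is partly set by the number of members. Without the 301 baits, recurrence beyond 2 Mb was 2.83%, while that of pairs of 0.5 to 2 Mb was 12.6%. Such baits are called hub baits below.

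**Figure D1:**
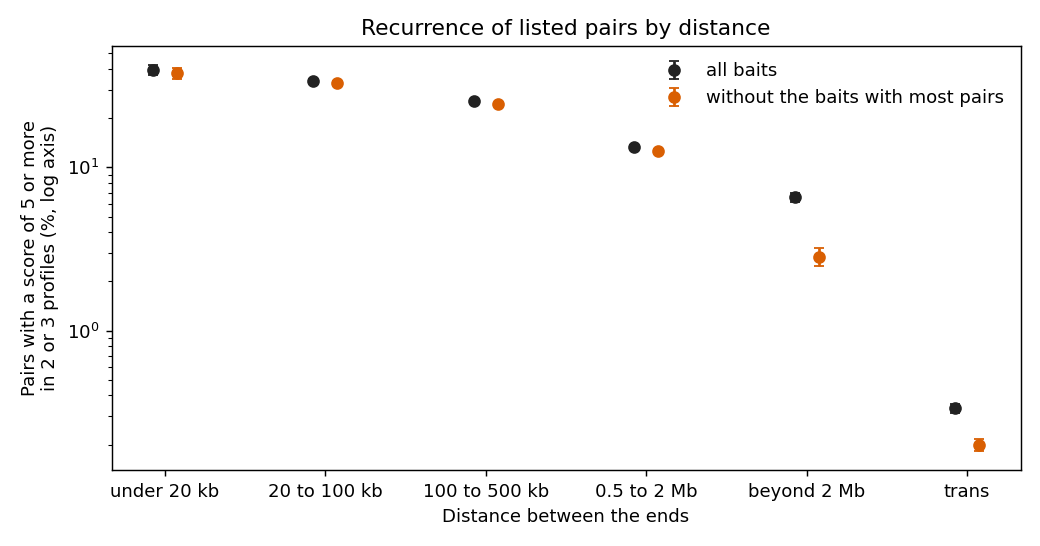
Percentage of listed pairs called in 2 or 3 profiles (%, log axis) by distance between the ends, for all baits and without hub baits; bars are 95% exact binomial intervals. Beyond 2 Mb the share was 6.54% with all baits and 2.83% without hub baits, the widest gap among the cis classes.

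Although fewer pairs recurred than at 0.5 to 2 Mb, a larger share of those that did were called in all 3 profiles. Among the members 356 (48.3%, interval 44.6 to 52.0%) were called in all 3 profiles, against 30.8% of recurring pairs of 0.5 to 2 Mb and 39.3% of recurring trans pairs. For recurring pairs under 20 kb the share was 45.4%, inside the interval of the members. The others were called in DMSO and UNC6852 (133), in UNC6852 and UNC1999 (133) or in DMSO and UNC1999 (115). Members that did not span the centromere were called in all 3 profiles in 36.8% of cases, against 37.7% of recurring cis pairs up to 0.5 Mb. Member scores were also high. Medians were 11.6, 14.4 and 13.9 for DMSO, UNC6852 and UNC1999, and 31, 31 and 34 members reached 100, which no recurring pair of 0.5 to 2 Mb did. The highest scores were 1429 in DMSO, 1381 in UNC6852 and 2756 in UNC1999. At the edge of the rule, the lowest second-highest score of a member was 5.02 and the highest of a pair left out was 4.98, and 82 members had a second-highest score under 6. The shortest member spanned 2080 kb and the longest recurring pair within 2 Mb 1999 kb.

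Distances ran from 2080 kb to 219 Mb with a median of 11.8 Mb. There were 63 members of 2 to 3 Mb, 79 of 3 to 10 Mb, 474 of 10 to 20 Mb, 66 of 20 to 50 Mb and 55 over 50 Mb. The members had 125 baits and 503 other ends. Merging rows whose ends both lay within 20 kb left 128 locus pairs, of which 72 held a single row, 34 had at least 2 baits and 15 at least 3. In 123 members the other end was itself a captured fragment. Of the 83 such fragment pairs, 40 were members in both directions. Only these 40 were compared, and each side had already passed the rule. Like calls on the 2 sides are thus largely set by this choice and are no check of the scores. In 119 of 120 comparisons of the 2 directions within a profile, both or neither were called, and the median absolute gap between directions was 0.20 on the asinh scale. The gap was over 1 in 15 of the 120, at most 3.94, and in 13 of these 15 the lower score was from 25 to under 30. Of the 6 fragment pairs with a score of at least 100, 5 had such a gap, so a high score in 1 profile was often not matched from the other side. Likewise, of 59 members with a score of at least 100 in any profile, 48 had a score from 25 to under 30 in another. The 2 directions largely share their reads, so this is no replicate. In the same rows the median absolute gap between profiles was 0.74 for UNC6852 and DMSO and 0.62 for UNC1999 and DMSO.

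By chromosome, the members were concentrated on 4. Chromosome 16 held 372 (50.5%), chromosome 1 held 103, chromosome 9 held 86 and chromosome 17 held 61, together 84.4%. Chromosomes 5, 7, 8, 10, 11, 20, 21 and Y held 7 to 19 each, chromosomes 2, 3, 4, 6, 12, 15 and X held 1 to 3 each, and chromosomes 13, 14, 18, 19 and 22 held none. Recurrence among listed pairs beyond 2 Mb was 41.2% on chromosome 16, 15.8% on 17, 11.2% on 9 and 7.22% on 1, against 6.54% over all chromosomes, and 0.262% on chromosome 2.

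By arm, 24 members lay on a short (p) arm, 245 on a long (q) arm, 343 joined p to q and 125 had 1 end inside the centromere limits. The 5 classes of chromosome and arm with most members were chromosome 16 across the centromere (275), chromosome 16 with an end inside the limits (84), 1q (70), 17q (60) and 9q (51). Recurrence was 10.4% for pairs that span the centromere and 28.2% for those with an end inside its limits, against 4.15% on q arms and 1.49% on p arms. Without hub baits these shares were 4.88%, 13.5%, 1.58% and 1.53%.

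Leaving out the 343 spanning members left 394: 97 on chromosome 16, 71 on 1, 62 on 9, 60 on 17, 18 each on 5, 10 and 20, 14 on 7, 11 on Y, 10 on 21 and 7 on 8, with 1 or 2 on 2, 4, 6, 12, 15 and X. Recurrence was then 4.95%. With these limits chromosome 16 stayed first, and chromosomes 3 and 11 lost all their members. The class of a pair depends on where the centromere is drawn. The limits above are rounded cytogenetic bands. On chromosome 1 the listed fragments stop at 125184384 and resume at 143186096, on the q side of the band, so pairs across this stretch count as 1q. The longest stretch with no listed fragment overlapped the band on 21 of 24 chromosomes, and not on 1, 13 or Y. On 13 it was 0.173 Mb long and on Y 30.0 Mb, both on the q side of the band. When the longest stretch with no listed fragment was used for each chromosome, 528 members (71.6%) spanned it, against 32.6% of pairs called in 1 profile, and 209 remained: 60 on chromosome 17, 51 on 9, 18 each on 5 and 20, 14 on 7, 13 on 16, 10 on 21, 7 on 8, 6 on 10, 4 on 1, none on Y and 1 or 2 on each of 2, 4, 6, 12, 15 and X. After spanning members were left out, chromosome 16 was thus first with the band limits only. With the bands these shares were 46.5% and 28.2%. Both ends lay within 5 Mb of that stretch in 64.6% of members, against 5.99% of pairs called in 1 profile and 6.12% of recurring pairs of 0.5 to 2 Mb. Measured from the bands these shares were 5.02%, 2.32% and 6.22%, so this nearness rests on the choice of limits.

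**Figure D2:**
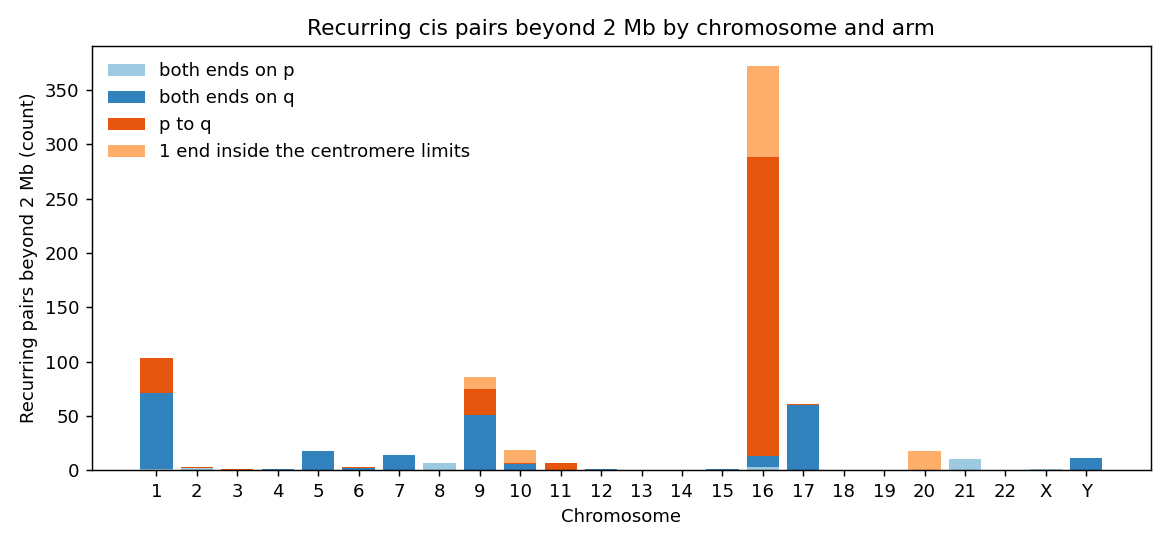
Number of recurring pairs beyond 2 Mb on each chromosome, stacked by the arms of the 2 ends with band limits of the centromere. Chromosome 16 holds 372, of which 275 join p to q and 84 have an end inside the centromere limits.

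Chromosome 16 joined the regions that flank its empty stretch. In 359 of its 372 members, 1 end lay between 46.3 and 46.6 Mb and the other between 32 and 36.4 Mb, 10.1 to 13.9 Mb away. The upper end lay below 46.42 Mb in 353 of them. The lower ends gathered between 34.5 and 36.4 Mb, and 84 of the 359 had theirs inside the band limits of the centromere: 189 were between 34.5 and 34.9 Mb, 86 between 34.9 and 35.5 Mb and 59 between 35.5 and 36.4 Mb. The 359 had median scores of 12.7, 16.1 and 15.1, and 198 were called in all 3. The densest locus pair joined chr16:34571526-34827561 with chr16:46381705-46419169 in 183 members of 22 baits, 118 of them called in all 3 profiles. No gene end lay within 5 kb of either side, and the nearest protein-coding gene on the upper side was SHCBP1, which encodes an SHC-binding protein. Its best member had scores of 1429, 1381 and 1364, and the best member of a bait that is no hub had 219, 180 and 172. From the opposite bait the same 2 fragment pairs had 27.8, 1214 and 28.9, and 205, 28.8 and 28.8, so the profiles were at a like level from 1 side only. The fragment chr16:34571526-34576702 was a member with 15 baits, 14 of them called in all 3 profiles.

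A single bait, chr16:46390065-46390538, held 197 members (26.7%), 117 of them called in all 3 profiles. It was listed in 453 pairs, of which 153 were trans and 36 of those recurred. Its median member scores were 12.1, 16.7 and 15.1. Its neighbour chr16:46390694-46391459 held 33 members, chr16:46397703-46399006 held 25 and chr16:46389224-46389869 held 11, while from the p side the bait chr16:34595031-34595444 held 26. Without chr16:46390065-46390538 there were 540 members and recurrence beyond 2 Mb was 4.92%; without chromosome 16 there were 365 and 3.52%.

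The remaining 13 members of chromosome 16 lay within an arm, 1 of them joining the bait chr16:46390065-46390538 with a fragment 43.7 Mb away. PDPR, which regulates pyruvate dehydrogenase phosphatase, was the other end of 9. The bait chr16:74295935-74296746 beside PSMD7, a proteasome subunit, met 3 fragments of PDPR 4.13 to 4.14 Mb away, with scores of 29.0, 14.8 and 16.1 in the highest, then 4.97, 17.8 and 7.69, and 2.30, 12.5 and 10.6. DMSO was the highest profile in 1 and the lowest in the other 2. Baits beside RFWD3, a ubiquitin ligase of DNA repair, and MLKL, the effector of necroptosis, met PDPR in 6 members. Their UNC6852 scores ran from 0 to 12.8, with 2 called, and their UNC1999 scores from 6.77 to 20.96, with all 6 called, so the profiles differed in which rows were called. On 16p, chr16:21515869-21516247 and chr16:29609141-29609523, both captured and 8.09 Mb apart, had scores of 10.5, 26.9 and 19.7 from the first and 12.3, 32.6 and 21.6 from the second.

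Chromosome 1 had 2 large groups. In the first, 53 members of 7 baits joined chr1:125166090-125184134 with chr1:143186096-143277210, at most 18.1 Mb apart across the empty stretch, and 37 were called in all 3 profiles. Median scores were 25.3, 23.1 and 26.9. The best member of a bait that is no hub had 26.9, 56.1 and 107. The hub bait there, chr1:125183675-125184134, held 43 members, and of its 635 listed pairs 350 were trans, 176 of them recurring. It also gave 14 members with ends 18.4 to 124 Mb away, none called in all 3 profiles. The 5 widest locus pairs not called as spanning with the band limits were all of this bait, 4 of them near the end of 1q, with best scores of 9.50, 15.8 and 0, of 9.74, 15.1 and 0, of 19.8, 31.2 and 4.21, of 0, 10.1 and 19.985, and of 0, 6.63 and 6.11. The fourth overlapped the olfactory receptor gene OR2T1, and the third was beside OR14I1. With the limits from the empty stretch, all 5 span it.

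The second group ran the length of the chromosome. In 30 members, 17 baits between 16073390 and 16915550 met 2 neighbouring fragments at chr1:234776117-234786738, 218 to 219 Mb away, and 23 were called in all 3 profiles. The fragment chr1:234776117-234781218 alone was a member with all 17 baits, 14 of them in all 3. It had no listed trans pair, and the nearest protein-coding gene was IRF2BP2, a transcriptional corepressor, 165939 bp away. On the other side lay NBPF1 (its promoter is shown above), the pseudogenes ESPNP and CROCCP2, MST1L, CROCC, a component of the ciliary rootlet, and genes of transfer RNAs. Median scores of the 30 were 25.8, 30.4 and 26.0. The locus pair with NBPF1 had best scores of 160, 170 and 161, alike in the 3 profiles. The one over TRG-CCC5-1, a glycine transfer RNA gene, had 26.0, 26.0 and 2756, the last being the highest score of any member, while the neighbouring bait chr1:16727715-16728089 had 439, 435 and 440 with the same fragment, alike in the 3 profiles. MST1L followed with 26.0, 95.05 and 156, then locus pairs beside LINC03126 with 21.8, 81.3 and 37.6 and over CROCC with 25.6, 53.6 and 46.1. In these 3 best rows DMSO was lowest. For MST1L and CROCC its scores, 25.9899 and 25.5844, were exact values that other baits of the group also had. They lie from 25 to under 30, as did 319 of 2211 member scores, so no order of conditions is drawn. The other bait over MST1L, chr1:16757858-16758538, reached 46.4, 38.4 and 13.4, with DMSO highest, so the order did not hold across that locus pair. The bait beside EPHA2, an ephrin receptor and the only axon guidance gene with a member, had 16.9, 9.92 and 0. A further 1q pair, chr1:145460549-145461166 with chr1:148034296-148039390, had 36.4, 32.7 and 32.7. Both its ends lay beside a U1 small nuclear RNA gene (RNVU1-31, RNVU1-7) and a glutamine transfer RNA gene.

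On chromosome 9, 85 of 86 members lay between 38627777 and 68887530, the duplicated region around its heterochromatin, and formed 26 locus pairs of 18 baits. Median scores were 10.3, 7.27 and 6.82, and 23 were called in all 3 profiles. The highest joined chr9:41221937-41249403 with chr9:63818969-63830275 beside LINC00537, with best scores of 115, 27.6 and 116 and all 9 of its members called in all 3. From the opposite bait the same fragments had 26.5, 27.6 and 120, so which profile was lowest depended on the side. The pair with FOXD4L6 and PGM5, for which the FOXD4L6 and FOXD4L3 promoters are shown above, had 25.4, 39.0 and 31.6, the last of the 15 locus pairs named by rule. On 9q, 42 members joined chr9:62748561-62875451 with fragments of 68416071 to 68887530, and 4 of these were called in all 3. The hub baits chr9:62874760-62875066 and chr9:62748561-62799355 held 18 and 17 members, with 4 and 0 called in all 3. The latter fragment is 50795 bases long, against 569 for the chromosome 17 bait described next.

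Chromosome 17 had a run of contacts from 1 bait. The fragment chr17:64921015-64921583, beside LRRC37A3, of a family of leucine-rich repeat genes, held 55 members with other ends from 45569084 to 46295050, 18.6 to 19.3 Mb away on the same arm. None of its recurring pairs was trans, and 8 of its 109 listed pairs were. KANSL1 was overlapped by 24 of these other ends, 11 in all 3 profiles, with median scores of 14.2, 19.2 and 14.3. MAPT, which encodes the microtubule protein tau, was overlapped by 13, with 3 in all 3 profiles and medians of 9.42, 19.2 and 9.42. LRRC37A was overlapped by 9, with 8 in all 3 profiles and medians of 27.9, 27.9 and 30.8. Scores were thus highest at the LRRC37A end. The locus pair at that end, with 13 members of 4 baits, had best scores of 96.5, 143 and 102. A locus pair beside the pseudogene DND1P1 at the far end had 91.1, 91.3 and 80.4, and between these ends scores were lower. From the LRRC37A side a bait at chr17:46267391-46268716 also met chr17:67990547-67993459 beside C17orf58, 21.7 Mb away, with 30.5, 12.97 and 52.9.

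**Figure D3:**
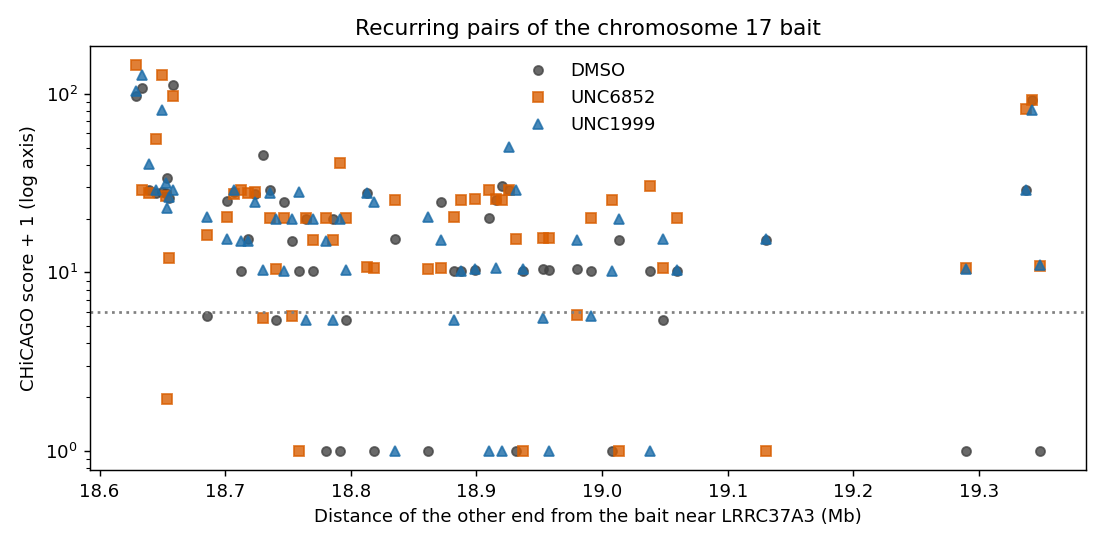
CHiCAGO score plus 1 (log axis) of the 55 recurring pairs of the chromosome 17 bait beside LRRC37A3, against the distance of the other end in Mb; points are the 3 pooled profiles and the dotted line is a score of 5. The ends of the run, at 18.6 and 19.3 Mb, hold the highest scores, and points on the bottom line are scores of 0.

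Smaller groups lay on chromosomes 20, 10, 21 and Y. On chromosome 20, 18 members of 3 baits spanned 2.15 to 2.34 Mb. The bait chr20:30812598-30813114 held 13 of them, 11 in all 3 profiles, with best scores of 81.3, 88.7 and 65.0. On chromosome 10, 12 members of 2 baits joined chr10:42070521-42080088 with fragments 2.78 to 3.55 Mb away, all called in UNC6852, 9 in DMSO and 4 in UNC1999. On chromosome 21 all 10 members were on the p arm, with 2 called in all 3, and on Y 11 members of 2 baits spanned 30.1 to 46.1 Mb, all with the fragment that starts at 56726450 as an end.

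**Figure D4:**
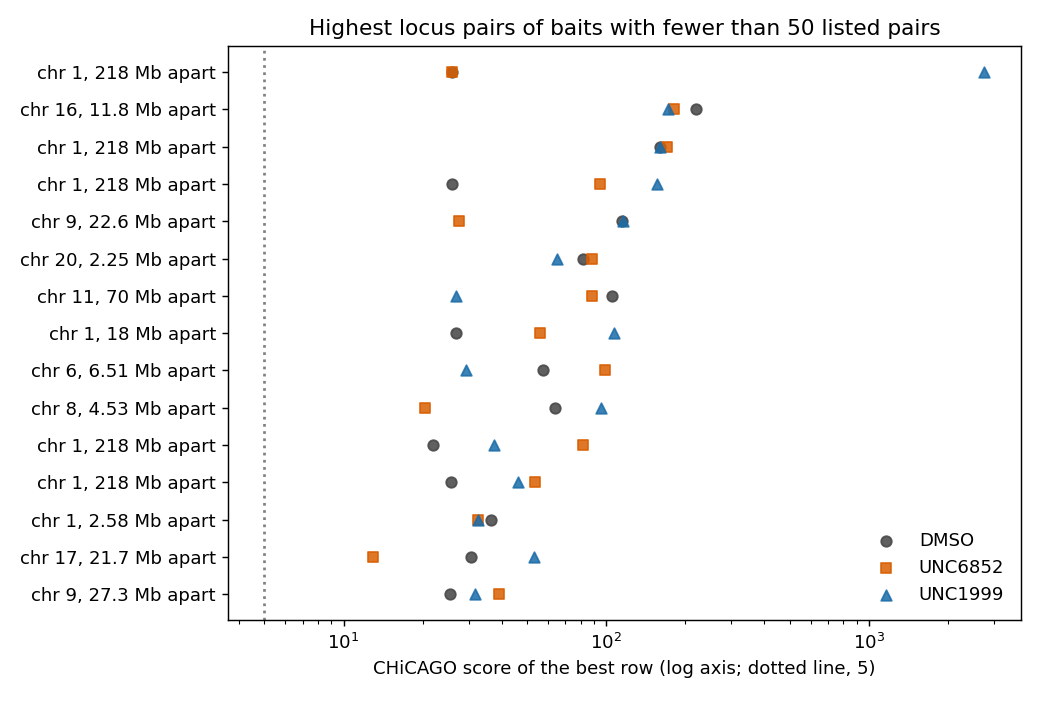
Scores in the 3 pooled profiles (log axis; dotted line, 5) of the best row of the 15 locus pairs with the highest mean score among baits that are no hubs. In 14 of the 15 the 3 profiles lie between 12.97 and 219.1, and the first locus pair has 2756 in UNC1999 and 26.0 in the others.

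Far from the centromeres the numbers were small. Of 6029 listed pairs within 1 arm and with both ends over 5 Mb from both sets of centromere limits, 127 recurred (2.11%, interval 1.76 to 2.50%), against 6.54% of all listed pairs beyond 2 Mb. They formed 30 locus pairs on 14 chromosomes, and 72 were of hub baits. Without hub baits recurrence was 2.83% at 2 to 3 Mb, 2.74% at 3 to 5 Mb, 0.784% at 5 to 10 Mb, 0.340% at 10 to 50 Mb and 0.0829% over 50 Mb (1 of 1207 pairs). Over all pairs of 0.5 to 2 Mb without hub baits, not limited by arm or nearness to a centromere, the share was 12.6%.

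The chromosome 7 members joined the EN2 locus, a homeobox gene of the midbrain and hindbrain, to PTPRN2, a phosphatase-like protein of secretory vesicles, 2.17 to 2.28 Mb away. There were 14 rows of 7 baits, 5 baits near EN2 and its neighbour CNPY1 and 2 within PTPRN2, and 13 of them formed 1 locus pair of chr7:155426633-155513717 with chr7:157665143-157710210. Scores ran from 3.45 to 9.94 in DMSO (median 7.08), from 0 to 9.87 in UNC6852 (median 5.58) and from 0 to 12.1 in UNC1999 (median 6.04), with 11, 9 and 10 called. The row from PTPRN2 to the fragment just before the EN2 promoter shown above had 9.94, 6.81 and 9.06, and a row from the same bait to a fragment further upstream of EN2 had 7.06, 7.01 and 6.07. These 2 were the rows called in all 3 profiles. The second PTPRN2 bait gave 7.69, 3.86 and 6.05 with the same EN2 fragment. Both compounds were above DMSO in 3 of the 14 rows and both below in 8. The group is modest in score but rests on 7 baits that lie on both sides, although none of its fragment pairs was a member from both ends.

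**Figure D5:**
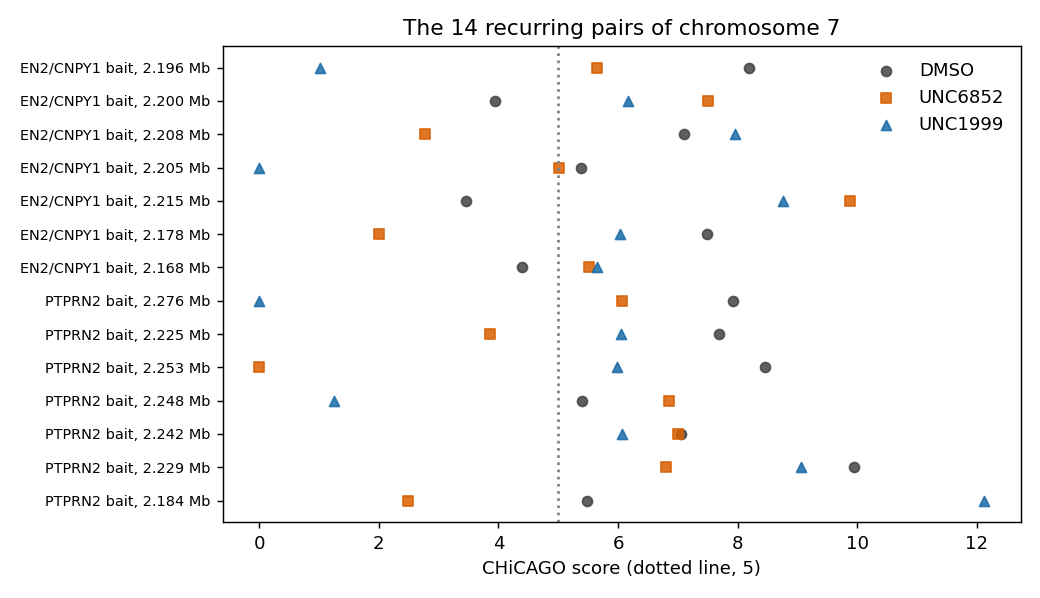
CHiCAGO scores (dotted line, 5) of the 14 recurring pairs between the EN2/CNPY1 locus and PTPRN2 in the 3 pooled profiles, each row labelled by the side of its bait and its distance in Mb. Only 2 rows lie above 5 in all 3 profiles, and no profile exceeds 12.1.

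Homeobox genes appeared at both ends only with a wider window. The bait chr9:124004637-124004922, beside LHX2-AS1 and within 20 kb of LHX2, a LIM homeobox gene, met chr9:126612311-126616524, which holds the promoter of LMX1B, another LIM homeobox gene, 2.61 Mb away. Its scores were 0 in DMSO, 5.75 in UNC6852 and 6.91 in UNC1999, so it was called in both compounds and not in DMSO. With 1 row and scores close to 5 it had no support from a neighbouring row. BMP3, a ligand of the TGF-beta family, had 1 member of 2.08 Mb with 6.51, 5.68 and 0.

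Other arm-internal groups were as follows. On chromosome 10, 3 baits within CTNNA3 and beside LRRTM3, a synaptic adhesion protein encoded within it, met fragments 2.83 to 2.90 Mb away in 6 members. UNC6852 scores ran from 7.22 to 17.5 and all 6 were called, while DMSO ran from 0.928 to 15.7 and UNC1999 from 0 to 15.6 with 4 called in each. On chromosome 5 the bait chr5:85894243-85895456, whose nearest protein-coding gene is COX7C, met 15 neighbouring fragments 32.9 to 33.0 Mb away, 14 of them within DTWD2, which modifies transfer RNA. The highest had 27.1, 104 and 110, and medians were 10.6, 16.5 and 5.41. UNC6852 was called in all 15, DMSO in 13 and UNC1999 in 9. These scores stood in groups, the lowest above 5 running from 5.17 to 5.41 and the next from 10.4 to 11.1. Calls and medians of the profiles can thus differ by a single such group.

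On chromosome 8, chr8:8067799-8068266 met 6 fragments beside FAM86B2 4.48 to 4.53 Mb away, with 63.7, 20.5 and 95.2 in the best. On chromosome 6, chr6:160836973-160837614 and chr6:167350786-167350954 were members in both directions, 6.51 Mb apart, with 39.4, 30.3 and 30.3 from the first and 57.6, 99.1 and 29.2 from the second. Across the centromere of chromosome 11, KRTAP5-2 met KRTAP5-10, KRTAP5-11 and KRTAP5-7, all genes of keratin-associated proteins of hair, in 7 members of 4 baits 69.9 to 70.0 Mb apart. The best had 105, 88.4 and 26.8, and 4 of the 7 were called in all 3 profiles.

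Developmental genes were scarce among the member rows, many of which belong to the same locus pair and are not independent. No member had a gene of a developmental list (HOX, other homeobox, other transcription factors, signalling, axon guidance) within 5 kb of both ends. The share was 0 of 737, with an upper limit of 0.499%, against 0.152% of pairs called in 1 profile beyond 2 Mb and 1.25% of recurring pairs of 0.5 to 2 Mb. Over the 128 locus pairs it was also 0, with an upper limit of 2.84%, which lies above both of these row shares. At either end the share of rows was 0.678% (5 members, with EN2, LMX1B, BMP3 and EPHA2), against 7.50% and 17.5%. This share was not taken over locus pairs. No HOX gene, no gene of the other transcription factor list, no Polycomb or Trithorax subunit, no pluripotency gene and no housekeeping gene lay within 5 kb of a member's end. HOX genes did so in 115 recurring pairs of 0.5 to 2 Mb. Among protein-coding genes taken by the start of their symbols, those beginning with KRT had 7 members, all with genes of keratin-associated proteins, and olfactory receptors had 3, while ZNF genes, protocadherins, defensins and histones had 0. Without hub baits the share with a developmental gene at either end was 1.93%.

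Some features of the members were not used by the rule. Genes whose symbols share a stem, such as KRTAP or FOXD, lay within 100 kb of both ends in 11.7% of members and in 19.7% of those of baits that are no hubs, against 3.51% of pairs called in 1 profile and 12.5% of recurring pairs of 0.5 to 2 Mb. Over locus pairs it was 28 of 128. The other end was captured in 16.7%, against 3.08% and 2.19%. A protein-coding gene end lay within 5 kb of either end in 20.9%, against 51.1% and 51.5%. A RefSeq promoter lay within 100 kb of both ends in 26.2%, against 65.0% and 66.0%, and for 57 of the 128 locus pairs (44.5%). Of the 125 baits 34 (27.2%) also had a recurring trans pair, against 2.82% of baits of pairs called in 1 profile and 1.53% of all baits, while the median number of listed trans pairs per bait was 11 in both member and 1-profile baits. What part similar sequence at the 2 ends has in these calls was not tested.

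The 3 conditions were compared over the members as a description. DMSO called 604 of the 737, UNC6852 622 and UNC1999 604, against 34.6%, 39.3% and 35.9% of all listed cis pairs beyond 2 Mb. Differences were taken between asinh-transformed scores. The median difference was 0.050 for UNC6852 minus DMSO and 0.012 for UNC1999 minus DMSO. Over the 128 locus pairs it was 0.0888 (interval -0.0084 to 0.387) and -0.039. The members were chosen by these scores and are no replicates of a condition, so no direction is drawn from either. Over all cis pairs these medians were 0.021 and 0. UNC6852 was higher in 399 members (54.1%) and lower in 327, and UNC1999 was higher in 382 (51.8%) and lower in 346. Over all cis pairs the compound was higher in 50.8% and 47.9%, and over all those beyond 2 Mb, many of them at 0 in both profiles, in 38.2% and 35%. Both differences use the same DMSO column. Quartiles were wide, -0.61 to 0.91 and -0.71 to 0.79. Without the spanning members the medians were 0.10 and 0, and in the 127 arm-internal members they were 0.34 and 0.0046. Of these 127 rows, 55 came from 1 chromosome 17 bait, 41 of them from its run over MAPT and KANSL1. Another 15 came from 1 chromosome 5 bait. Scores of both baits stood in groups.

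Single members moved widely, with no replicate to set against them. Among baits that are no hubs, the 5 that were lowest in the mean of both compounds relative to DMSO were on chromosomes 21 and 9: 35.3, 0 and 16.6 near TPTE; 19.6, 5.15 and 0 near ZNF658; 18.008, 5.10 and 0 near SPATA31A6; 34.97, 19.7 and 0 near TPTE; and 17.8, 0 and 5.26 near TPTE. The 5 highest were on 16 and 9: 0.566, 13.8 and 22.7; 0, 17.5 and 6.24; 0, 12.8 and 11.3 near ZNF658; 0, 20.2 and 18.6 near ZNF658; and 0, 34.7 and 23.1. The ZNF658 bait, chr9:66812509-66813147, had differences of both signs with fragments next to each other: the other end chr9:42262824-42268461 had 19.6, 5.15 and 0 and its neighbour chr9:42268462-42274509 had 0, 20.2 and 18.6.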

How the data were processed

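The authors' deposited table holds CHiCAGO scores, 1 for each fragment pair in each condition, from 15 pooled libraries per the labels; all values are non-negative, and every listed pair reached 5 in at least 1 column. The deposited distance column is the gap between fragment midpoints. Coordinates are GRCh38, per the submitters' processing notes; aligner and caller settings are not given in the sources used here, and read depth is unknown. Members and gene lists were chosen with earlier results of these data known. Scores were used as deposited, unscaled; differences are of asinh scores. Arms came from rounded GRCh38 centromere bands written by hand, with the longest stretch without a listed fragment as the other limit. Genes and promoters came from RefSeq (GRCh38.p14), which gave gene ends without strand. Named were the 15 highest locus pairs of baits with fewer than 50 pairs, pairs with developmental genes at both ends (0), the 10 baits and 5 arms with most members, the 5 widest pairs within an arm, and the 5 lowest and 5 highest differences; other loci were chosen after their values were seen. Intervals are exact (Clopper-Pearson, or order statistics for medians) at 95%. The calculations were tested on simulated data and run with Python 3.11.15, numpy 2.4.6, pandas 2.3.3, scipy 1.17.1 and matplotlib 3.10.9. Alternatives were other thresholds, distances, windows and merging, quantile normalization, and omission of hub baits, spanning pairs, 1 bait or chromosome 16.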

Additional observations from a re-analysis of the deposited data

How the results depend on the processing

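No paired analysis was possible because each condition is 1 pooled column that carries no replicate number; for the same reason no library could be left out. Of 68 alternative values 42 stayed within the interval of the reported value, or within 1.5 times it for counts, and 26 did not. With a threshold of 10 there were 427 members and 76 locus pairs; recurrence was 22.2% and the spanning share 55.0%. With a threshold of 7 recurrence was 11.2% and the spanning share 51.8%. A call in all 3 profiles gave 356 members and 3.16%. A distance over 1 Mb gave 1128 members and 283 locus pairs. Without hub baits there were 259 members and 82 locus pairs, with recurrence of 2.83%. Without spanning pairs there were 394 members and 4.95%. Without the bait with most members, which was left out after the data were seen, as was chromosome 16, recurrence was 4.92% and the spanning share 41.9%. Without chromosome 16 there were 365 members, recurrence was 3.52%, the spanning share 18.6% and the median UNC1999 difference -0.017. The spanning share was 71.6% with the empty stretches and 30.5% over locus pairs, where the median UNC1999 difference was -0.039. Merging ends within 5 kb gave 252 locus pairs and within 100 kb 83. The median UNC1999 difference was also negative with quantile-normalized scores (-0.0048) and without the bait with most members (-0.0010); the UNC6852 difference was above 0 in its 9 alternatives, from 0.013 to 0.103, but its interval over rows reached or crossed 0 in all except the threshold of 7 and the log2 scale. A developmental gene at both ends was found in 1 member with a window of 20 kb, the LHX2 and LMX1B pair (0.136%), and in 0 under the other alternatives. Fewer rows remain by construction where rows are left out; the cause of the other changes was not tested. Read numbers are unknown, so the precision of a single score cannot be given.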

Other observations

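Scores of the members were unevenly spread. Of 2211 member scores, 224 lay from 15 to under 20, 150 from 20 to under 25, 319 from 25 to under 30, 53 from 30 to under 35 and 36 from 35 to under 40. In 30 members 2 profiles had exactly the same score above 0, all between 26.0 and 32.7.

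The chromosome 17 bait beside LRRC37A3 had stepped scores. Of its 96 member scores from 3 to under 25, 91 (94.8%) lay within 0.6 of a whole multiple of 4.8, a window that covers 25% of that range. For the chromosome 16 bait with 197 members the share was 24.0% of 387 scores. The step was chosen after the scores were seen. This count was not made for other baits. Stepped scores were not particular to this bait, since those of the chromosome 5 bait also stood in groups, as from 5.17 to 5.41 and from 10.4 to 11.1. For that chromosome 17 bait, scores of 9.42 and 19.2, the medians over MAPT in DMSO and UNC6852, stand 2 such steps apart.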
